A study of Mus musculus with 12 samples.

Results

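The genes described here encode 8 proteins of the fibrous sheath of the sperm tail or its close partners: Akap3, Akap4, Fsip1, Fsip2, Ropn1, Ropn1l, Cabyr and Spa17. They were chosen by name, and all 8 were found among the 28643 gene symbols of the deposited table. All 8 had a value above 0 in every one of the 12 libraries and passed the filter on low values of each test.

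The libraries were made from round spermatids, the haploid cells that follow meiosis, sorted by flow cytometry from the testes of 8-week-old male mice while cycloheximide held ribosomes on their mRNAs. The control mice were heterozygous (Igf2bp3+/-) and the knockout mice homozygous (Igf2bp3-/-) for a frameshift made with Cas9 in C57BL/6 zygotes, in the exon that encodes the first KH domain, so the controls too lacked 1 intact copy. For each genotype, 3 replicates were sequenced as input RNA (RNA-seq). The other 3 libraries of each genotype held RNA of polysomes carrying at least 4 ribosomes (ribosome nascent-chain complex sequencing, RNC-seq). By the study's methods, the RNA of both assays was selected by its poly(A) tail, so levels and loadings here are those of poly(A)-selected RNA. IGF2BP3 is an RNA-binding protein that recognises N6-methyladenosine in mRNA, and the study asked what its loss does to transcript abundance and translation in these cells. The knockout was not restricted to germ cells. By the study's methods, homozygous males with impaired fertility were the ones used. The labels do not say whether each replicate was 1 mouse, and if it was not, the p-values measure only the spread between these samples. Input and polysome RNA were parts of the same extract by the study's methods. No label says that replicate numbers match between the assays, and the main fits took no pairs.

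The fibrous sheath is a cytoskeletal sleeve that surrounds the axoneme and outer dense fibers of the principal piece, the longest segment of the sperm flagellum. Its backbone is built from the A-kinase anchoring proteins AKAP4 and AKAP3, which tether the regulatory subunits of protein kinase A, and it also carries glycolytic enzymes that supply ATP along the tail. Ropporin (ROPN1), its relative ROPN1L, CABYR and SPA17 each hold a domain that resembles the dimerization domain of the regulatory subunit of protein kinase A and bind anchoring proteins through it, while FSIP1 and FSIP2 were named as proteins that interact with the sheath. Transcription of many sheath genes precedes tail assembly, since the haploid nucleus falls silent when chromatin condenses, and many spermatid mRNAs are stored before they are translated.

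Among the promoters, only those of both scaffold genes were similar over a long stretch, and these windows are shown for that reason. RefSeq promoter windows of GRCm38.p6, from 250 bases before to 50 bases after a start site, were at hand for 6 of the 8 genes, with 8 promoters in all. No entry was found for Fsip1 or Cabyr. The windows of Akap3 and Akap4 shared an unbroken run of 20 bases, given here in capitals.
Akap3, chr6:126853059-126853088, plus strand: ggttgCTATAGAAACAGTGATGTCActagc
Akap4, chrX:7067463-7067492, plus strand: gttctCTATAGAAACAGTGATGTCAtgaat
The run spans bases 34 to 15 before the start site in Akap3 and bases 47 to 28 before it in Akap4. Among 32851 promoters searched on both strands, 2 held the run (0.00609%), and these were the ones shown. The next longest run shared by promoters of any 2 of the genes measured 10 bases. The last 8 capitals, TGATGTCA, overlap the run entirely and were found in 3.62% of all promoters, on either strand, and among the 6 genes in Akap3 and Akap4. The palindromic cAMP response element, TGACGTCA, was found in 1.79% of all promoters and in none of the 6 genes. A match of letters describes the window and is not a binding site.

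In the genome (GRCm38, GENCODE M21), each gene is protein coding, and they are spread over 7 chromosomes. Akap3 lies on chromosome 6 (126853098 to 126874308), Akap4 on chromosome X (7067519 to 7078609), Ropn1 on chromosome 16 (34649921 to 34678618) and Ropn1l on chromosome 15 (31441211 to 31453737). Cabyr lies on chromosome 18 (12740322 to 12755260) and Spa17 on chromosome 9 (37603290 to 37613722). Fsip1 and Fsip2 both lie on chromosome 2 (118130424 to 118256966 and 82943634 to 83008937), far apart. Fsip2 stands out for its size, with a longest transcript of 21116 bases in 23 exons, of which 20985 bases are coding. In the other 7 genes the longest transcripts run from 730 bases in Spa17 to 3153 bases in Akap3. No gene had a near-identical copy. Exons of Siae, on the opposite strand, overlap 36.9% of the exonic bases of Spa17, and the sources used here do not say if reads were assigned by strand. Siae reached 3.09 to 4.06 FPKM in RNA-seq and 1.78 to 3.14 FPKM in RNC-seq, far below Spa17. A noncoding gene on the same strand, Gm29232, overlaps 4.57% of Fsip1 and had at most 0.0714 FPKM.

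Values are FPKM, a read density per transcript length and library size, so levels can be compared between genes, but the table holds no read counts and the depth of each library is unknown. Between 23554 and 25633 genes were above 0 in the RNA-seq libraries and between 21490 and 22797 in the RNC-seq libraries. Pearson's r across 12195 genes, which are not independent replicates, ranged from 0.974 to 0.991 within RNA-seq and from 0.947 to 0.985 within RNC-seq, and no library stood apart by this measure. The symbol CT010467.1 held the largest share of the summed FPKM in every library. Its share was 15.9%, 19.4% and 18.4% in Igf2bp3+/- RNC-seq and 8.14%, 11.5% and 14.6% in Igf2bp3-/- RNC-seq, without overlap. In RNA-seq it was 5.68% to 13.3%. FPKM is relative, so such a share bears on the values of all other genes, and its part in the differences below was not tested. A frameshift need not lower a transcript, and the level of Igf2bp3 (31.4 to 38.6 FPKM in RNA-seq) does not check the genotype labels. Markers of round spermatids (Acrv1, Spaca1, Spaca3, Sun5, Catsper3, Catsper4 and Izumo1) were all present in every library, with a summed level of 725 to 888 FPKM in Igf2bp3+/- and 963 to 1152 FPKM in Igf2bp3-/- RNA-seq. These 7 markers had positive log2 differences, with 0 past the limit. The 6 markers of Leydig cells were low in level but all higher in the knockout, 3 of them past the limit in RNA-seq, with sums of 14.6 to 21.5 against 46.3 to 52.8 FPKM in RNA-seq and 6.16 to 13.9 against 50.4 to 100.5 FPKM in RNC-seq. Those of Sertoli cells (4.47 to 5.60 against 9.04 to 9.26 FPKM) and of macrophages and blood (7.24 to 8.81 against 12.1 to 13.6 FPKM) were separate in RNA-seq too, while elongating spermatid, spermatocyte, spermatogonia and peritubular markers overlapped between genotypes. The elongating spermatid markers summed to 9069 to 11690 FPKM in Igf2bp3+/- and 10165 to 10289 FPKM in Igf2bp3-/- RNA-seq. The study itself measured transition protein and protamine mRNAs in sorted round spermatids, so that list does not single out elongating cells. In the Sertoli list, and in that of macrophages and blood, 1 marker passed the limit in RNA-seq. The Sertoli sum was largely that of Clu (2.74 to 3.63 against 6.63 to 6.79 FPKM). Sox9 and Wt1 had at most 0.185 FPKM in RNA-seq, and their ranges overlapped.

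All 8 transcripts were abundant in the input RNA of round spermatids, and together they took 0.63% to 0.740% of the summed FPKM of the RNA-seq libraries and 0.454% to 0.642% of the RNC-seq libraries. Ropn1l, which encodes the ropporin-like protein, stood at 1188, 1161 and 1050 FPKM in Igf2bp3+/- RNA-seq and ranked 18 among all symbols by its mean. Akap4, the main scaffold protein of the sheath, followed with 451, 534 and 517 FPKM and rank 80. Fsip2 was the lowest, at 57.5, 61.3 and 58.3 FPKM and rank 1609, and even it stood among the more abundant transcripts of the cell. Between these, in order of their means, came Spa17 (443 ± 98.8 FPKM, SD, n = 3), Ropn1 (432 ± 40.7), Cabyr (293 ± 15.7), Akap3 (160.2 ± 16.6) and Fsip1 (105 ± 10.9). The ranges of Akap4 and Spa17 overlapped, as did those of Spa17 and Ropn1, and each other pair of neighbours was separate. In Igf2bp3-/- RNA-seq the order was Ropn1l, Ropn1, Spa17, Akap4, Cabyr, Akap3, Fsip1 and Fsip2, and the ranges of Ropn1 and Spa17 overlapped, as did those of Spa17 and Akap4.

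**Figure D1:**
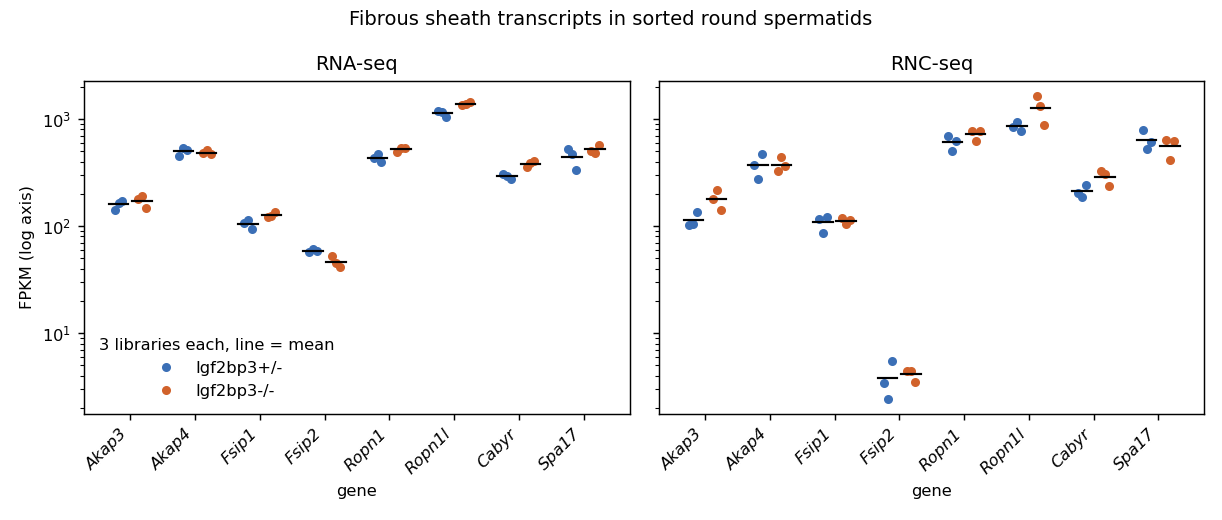
FPKM (log axis) of the 8 fibrous sheath genes in each of 3 libraries per genotype, for RNA-seq (left) and RNC-seq (right), with a line at each mean. Fsip2 is the lowest of the genes in RNA-seq (41.8 to 61.3 FPKM) and lies far below all the others in RNC-seq (2.45 to 5.45 FPKM).

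In the polysome libraries 7 of the genes remained abundant and Fsip2 did not. Fsip2 had 3.45, 2.45 and 5.45 FPKM in Igf2bp3+/- RNC-seq and 4.46, 4.48 and 3.50 FPKM in Igf2bp3-/- RNC-seq, and its rank in Igf2bp3+/- went from 1609 in RNA-seq to 7810 in RNC-seq. The next lowest gene, Fsip1, had a mean 28.8-fold above that of Fsip2 in Igf2bp3+/- RNC-seq, against 1.77-fold in RNA-seq. Ropn1l had the highest mean in RNC-seq of both genotypes, and its Igf2bp3+/- range overlapped that of Spa17.

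Loading on polysomes was measured in each genotype as the difference between log2 RNC-seq and log2 RNA-seq values, tested over the 6 libraries of that genotype with limma and Benjamini-Hochberg adjustment over all genes. Since FPKM is relative within a library, a loading of 0 means that a transcript took the same relative place in both kinds of library. In Igf2bp3+/- spermatids 5 of the 8 transcripts passed the limit of 0.05 (1 higher and 4 lower), against 43.7% of all 17942 genes tested (18.6% higher and 25.1% lower). Their median loading was -0.43, and that of all genes was -0.09. Fsip2 had a loading of -4.00 ± 0.25 (SE), or 16.0-fold lower in RNC-seq, and its limma adjusted p was 4.1e-05. Its lowest input library lay 52.1 FPKM above its highest polysome library. Of all 17942 genes, 6 had a lower loading.

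The other scaffold and adaptor transcripts differed between input and polysomes by much less. Akap3 was lower on polysomes, with 103, 104 and 134 FPKM against 142, 166 and 173 FPKM in the input, a loading of -0.50 ± 0.14 (SE, limma adjusted p 0.0218). Cabyr, a calcium-binding protein phosphorylated during capacitation, had 204, 187 and 240 FPKM against 308, 293 and 277 FPKM, with a loading of -0.48 ± 0.13 (SE, limma adjusted p 0.0140). Ropn1l had 837, 947 and 777 FPKM on polysomes, with a loading of -0.41 ± 0.12 (SE, limma adjusted p 0.0240). In each of these 3 genes, as in Fsip2, the polysome libraries lay below every input library (32.5% of all genes, with 23% above and 55.5% separate in either direction). Ropn1, by contrast, was higher on polysomes, with 690, 500 and 623 FPKM against 430, 474 and 393 FPKM and a loading of 0.47 ± 0.15 (SE, limma adjusted p 0.0279), so both ropporin genes, which encode related proteins, passed the limit in opposite directions. Akap4 (loading -0.45, limma adjusted p 0.0856), Spa17 (0.54, 0.0610) and Fsip1 (0.05, 0.842) did not pass. The input and polysome ranges of these genes overlapped. With same-numbered libraries taken as pairs, which the labels do not state, Spa17 passed as well. It had 792, 522 and 613 FPKM on polysomes against 525, 472 and 333 FPKM in the input, in the order of the replicate numbers.

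Apart from that of Fsip2, no call held each time a replicate was left out. Each such fit lost the RNA-seq and the RNC-seq library of that number. The loadings stayed between -0.56 and -0.41 for Akap3, -0.62 and -0.40 for Cabyr, -0.47 and -0.36 for Ropn1l and 0.37 and 0.67 for Ropn1. The share of all genes past the limit in these smaller fits is not given here. Without Igf2bp3+/- replicate 1 the count fell to 1 (Fsip2), without replicate 2 it was 3 (Fsip2, Ropn1 and Ropn1l), and without replicate 3 it was 3 (Akap3, Fsip2 and Cabyr). The loading of Ropn1 stayed positive but shrank to 0.07 with quantile normalization and 0.13 with libraries rescaled to the same sum, and that of Fsip1 turned to -0.11 and -0.30.

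In Igf2bp3-/- spermatids 1 of the 8 transcripts passed the limit, Fsip2, against 21% of all 18456 genes tested (10.1% higher and 10.9% lower). Its loading was -3.45 ± 0.18 (SE), or 11.0-fold lower in RNC-seq (limma adjusted p 1.1e-04), and 2 of all genes had a lower loading. The loading of Ropn1 (0.47) was close to its value in the heterozygotes, as were those of Cabyr (-0.42) and Akap4 (-0.38), with limma adjusted p of 0.0726, 0.121 and 0.140. For Akap4, Cabyr and Fsip1 (-0.18) every polysome library lay below every input library, and for Ropn1 every one lay above, whereas Akap3 (0.04), Ropn1l (-0.17) and Spa17 (0.08) overlapped. Among all genes 40.4% were separate. The values of Akap3 and Spa17 turned to -0.24 and -0.20 with libraries rescaled to the same sum, which moved the median of all genes from -0.04 to -0.28. That a transcript passed in 1 genotype and not in the other does not show a difference between them, which is the difference in translational efficiency tested below.

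**Figure D2:**
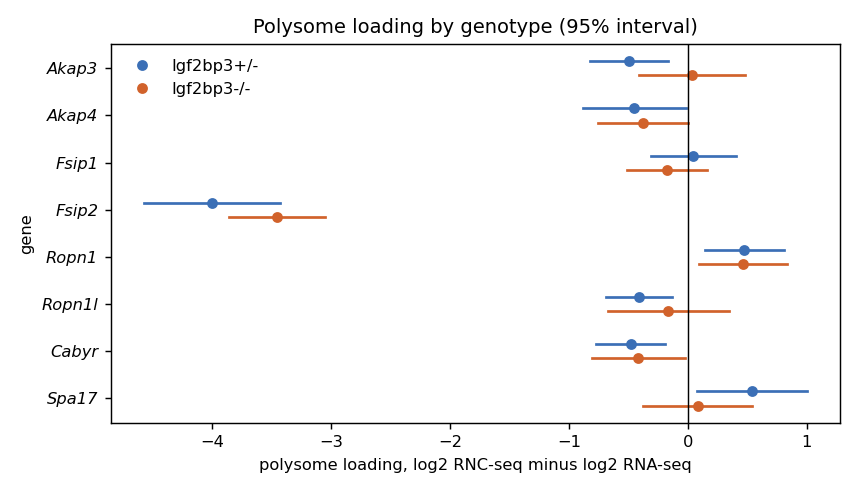
Polysome loading, log2 RNC-seq minus log2 RNA-seq, of the 8 genes in each genotype, with the 95% interval from limma. Fsip2 lies at -4.00 and -3.45, and each other value is between -0.50 and 0.54.

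Loading fell with transcript length across the whole table, and Fsip2 was set against transcripts of its own length. The length classes used here and below were chosen after the data were seen. Among genes with a mean RNA-seq FPKM above 10, the median loading in Igf2bp3+/- was 0.84 for the 880 genes with a longest transcript of up to 1000 bases, -0.22 for the 1940 genes between 2000 and 4000 bases and -2.44 for the 37 genes over 12000 bases. In Igf2bp3-/- the median of the 37 genes was -1.65. Fsip2 was the lowest of these 37 in both genotypes, and its loading minus their median was -1.56 in Igf2bp3+/- and -1.81 in Igf2bp3-/-. With the trend on length removed from each library, an alternative chosen after the data were seen, its loading was -2.58 in Igf2bp3+/- and -2.57 in Igf2bp3-/-, with limma adjusted p of 7.8e-05 and 3.9e-04. Its transcript is the longest of the 5317 genes compared, with the next at 19300 bases, so the trend is thinly supported at its end.

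The other members were set against transcripts of their length in the same way. Ropn1l, at 957 bases, had a loading that differed from the median of its length class by -1.26 in Igf2bp3+/-, with 51 of the 880 genes lower, and by -0.83 in Igf2bp3-/-. With the length trend removed, its loading in Igf2bp3+/- was -0.85 (limma adjusted p 0.00191), and that of Cabyr was -0.41 (0.0102). Akap3 (-0.21, limma adjusted p 0.212) and Ropn1 (0.15, 0.241) no longer passed. In Igf2bp3-/- neither Ropn1l (-0.51, limma adjusted p 0.145) nor Cabyr (-0.39, 0.0664) passed with the trend removed. The loading of Spa17 in Igf2bp3+/-, though above 0, differed by -0.31 from the median of transcripts of up to 1000 bases.

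**Figure D3:**
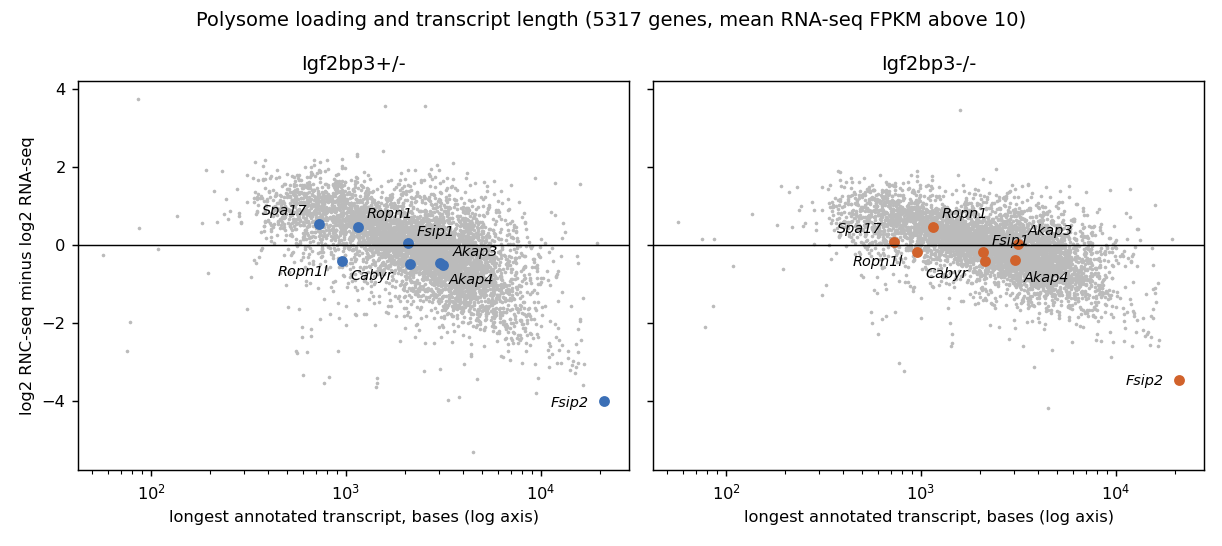
Polysome loading against the length of the longest annotated transcript (log axis, bases) for 5317 genes with a mean RNA-seq FPKM above 10 (grey), in Igf2bp3+/- (left) and Igf2bp3-/- (right), with the 8 fibrous sheath genes in colour. Fsip2, at 21116 bases, lies at the lower right end of a falling cloud, and Ropn1l lies near the lower edge of the cloud at 957 bases.

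The RNA-seq comparison asks whether the abundance of these transcripts differed between genotypes. None of the 8 passed the limit, where 0.256% of all 20352 genes did. At an unadjusted limma p under 0.05 there were 5 (15.7% of all genes), 4 of them higher in Igf2bp3-/- (10.4%) and 1 lower (5.32%). The median log2 difference of the 8 was 0.26, and that of all genes was 0.05.

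Cabyr had the smallest p of the group. It measured 308, 293 and 277 FPKM in Igf2bp3+/- and 357, 391 and 403 FPKM in Igf2bp3-/- RNA-seq, a log2 difference of 0.39 ± 0.09 (SE, limma adjusted p 0.152). Ropn1l measured 1188, 1161 and 1050 against 1343, 1378 and 1451 FPKM (log2 difference 0.30 ± 0.09, SE, limma adjusted p 0.202). For Ropn1 the values were 430, 474 and 393 against 493, 536 and 536 FPKM (0.27 ± 0.09, limma adjusted p 0.239). In these 3 genes each knockout library lay above each heterozygous one. So it was for Fsip1, at 107, 114 and 93.0 against 120, 125 and 137 FPKM (0.28 ± 0.10, SE, limma adjusted p 0.25). Fsip2 went the other way, with 52.5, 44.9 and 41.8 FPKM in Igf2bp3-/-, all below the heterozygous libraries, and a log2 difference of -0.35 ± 0.10 (SE, limma adjusted p 0.201). The libraries did not overlap for 22.7% of all genes, 14.1% higher and 8.68% lower.

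The anchoring proteins showed little difference in abundance. Akap3 measured 142, 166 and 173 against 178, 191 and 147 FPKM, and Akap4 measured 451, 534 and 517 against 477, 508 and 467 FPKM, with log2 differences of 0.10 and -0.05. The 95% interval of the log2 difference ran from -0.18 to 0.38 for Akap3 and from -0.26 to 0.16 for Akap4, so a larger difference than that in either direction lay outside it. The sign for Akap3 turned to -0.05 with quantile normalization. Spa17, whose heterozygous libraries spread from 333 to 525 FPKM, had a log2 difference of 0.25 ± 0.16 (SE, limma adjusted p 0.480).

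These differences too varied with transcript length. Among the genes with a mean RNA-seq FPKM above 10, the median log2 difference between genotypes in RNA-seq was 0.22 for transcripts of up to 1000 bases and -0.27 for those over 12000 bases. The value of Fsip2 differed from the median of its length class by -0.09. With the trend removed it was -0.12 (limma adjusted p 0.520), while Ropn1l (0.14), Ropn1 (0.13) and Fsip1 (0.20) also came nearer to 0 and Cabyr stayed at 0.31 (limma adjusted p 0.0908). Cabyr had a difference above that of 1871 of the 1940 genes of its length class. The markers of round spermatids, at a median log2 difference of 0.32, moved the same way as Cabyr, Ropn1l, Ropn1 and Fsip1, as did those of Leydig cells. Their part in the differences was not tested, and more cells of a type and more RNA per cell cannot be told apart in these bulk libraries.

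In RNC-seq, which asks the same of mRNAs on polysomes, none of the 8 passed the limit (0.115% of all 19051 genes did), and 3 had an unadjusted limma p under 0.05 (6.48% of all genes), all higher in Igf2bp3-/- (5.36%). Akap3 measured 103, 104 and 134 FPKM in Igf2bp3+/- and 177, 217 and 140 FPKM in Igf2bp3-/-, a log2 difference of 0.63 ± 0.22 (SE), or 1.55-fold (limma adjusted p 0.704). All knockout libraries lay above the heterozygous ones, the lowest of them by 5.71 FPKM, and among all genes 11.3% had libraries that did not overlap, 9.44% with the knockout higher. Ropn1l measured 837, 947 and 777 against 1633, 1318 and 885 FPKM (0.54 ± 0.24, SE), and Cabyr 204, 187 and 240 against 328, 308 and 235 FPKM (0.46 ± 0.21, SE), both with a limma adjusted p of 0.767. In both, the third knockout library fell within the range of the heterozygotes.

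The other 5 transcripts overlapped between genotypes on polysomes. Akap4 measured 372, 275 and 475 against 325, 441 and 361 FPKM and Fsip1 117, 87.1 and 123 against 120, 104 and 113 FPKM. Their log2 differences of 0.03 and 0.06 turned to -0.09 and -0.06 when libraries were centred on their medians, which moved the median of all genes from 0.13 to 0.01. Ropn1 measured 690, 500 and 623 against 777, 617 and 778 FPKM (log2 difference 0.27), and Spa17 792, 522 and 613 against 641, 412 and 626 FPKM (-0.20). The difference of Fsip2 was 0.19, with a 95% interval from -0.46 to 0.85. The 95% intervals of these 5 genes all held 0. The median log2 difference of the 8 was 0.23.

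Translational efficiency (TE) was compared as the difference between genotypes in loading, over all 12 libraries. None of the 8 transcripts passed the limit, where 1 of 18414 genes did (0.00543%), and none had an unadjusted limma p under 0.05 (7.13% of all genes). By the study's definition, the ratio of RNC-seq to RNA-seq FPKM, here of the means, Akap3 went from 0.711 in Igf2bp3+/- to 1.04 in Igf2bp3-/-. The log2 difference in TE was 0.54 ± 0.25 (SE, limma adjusted p 0.705), and its 95% interval, from -0.0045 to 1.08, just held 0. For Fsip2 the ratio was 0.0641 and 0.0894, with a log2 difference of 0.55 ± 0.32 (SE, limma adjusted p 0.725). The 37 genes over 12000 bases had a median of 0.62 in the same comparison, so Fsip2 lay close to transcripts of its length, and with the length trend removed its value was 0.0028.

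The log2 differences in TE of the remaining genes were smaller in size, though only by little for Spa17. The ratio of Akap4 was 0.747 and 0.776, that of Cabyr 0.719 and 0.756 and that of Ropn1 1.40 and 1.39. Ropn1l went from 0.753 to 0.919, Fsip1 from 1.04 to 0.884 and Spa17 from 1.45 to 1.08, the largest step downward. The log2 difference of Spa17 was -0.46, with a 95% interval from -1.11 to 0.20. Those of Akap4 (0.08) and Cabyr (0.07) turned to -0.05 and -0.06 when libraries were centred on their medians, and that of Ropn1 (-0.01) to 0.03 with quantile normalization. The median over the 8 was 0.07, and over all genes 0.06. RNA-seq, RNC-seq and TE differences come from the same libraries and are not independent of each other.

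**Figure D4:**
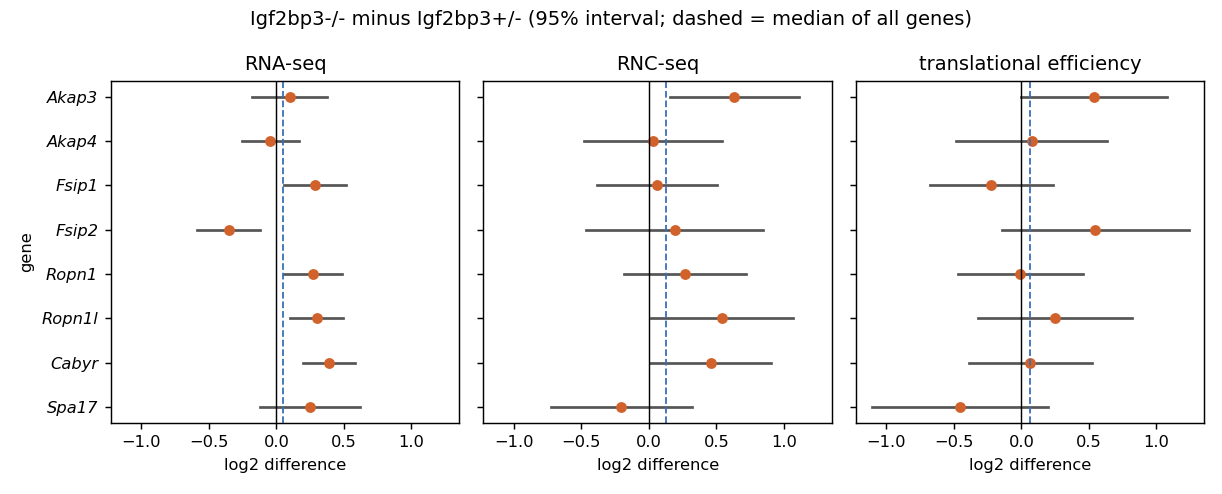
Log2 difference, Igf2bp3-/- minus Igf2bp3+/-, of the 8 genes in RNA-seq, RNC-seq and TE, with the 95% interval from limma and the median of all genes as a dashed line. The RNA-seq intervals of Cabyr, Ropn1l, Fsip1 and Ropn1 lie above 0 and that of Fsip2 below it, and no gene passed the limit after adjustment in any of the 3 comparisons.

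Ratios between related members were taken within each library, where the library size cancels out. The ratio of Akap4 to Akap3 was 3.13 ± 0.13 in Igf2bp3+/- and 2.84 ± 0.30 in Igf2bp3-/- RNA-seq (SD, n = 3), which overlapped. On polysomes it was 3.61, 2.65 and 3.54 in Igf2bp3+/- and 1.83, 2.03 and 2.58 in Igf2bp3-/-, without overlap, although the nearest libraries differed by less than the spread within a genotype. An exact two-sided permutation test gave p = 0.1, the smallest that 3 against 3 allows, and an adjusted p of 0.3 over the 6 ratio tests. The ratio of Fsip2 to Fsip1 in RNA-seq was 0.540, 0.535 and 0.627 in Igf2bp3+/- and 0.436, 0.360 and 0.306 in Igf2bp3-/-, with the same exact permutation p of 0.1 and adjusted p of 0.3. With the length trend removed, the RNA-seq differences of Fsip2 and Fsip1 were -0.12 and 0.20. The ratio of Ropn1 to Ropn1l was nearly constant in RNA-seq, at 0.381 ± 0.024 and 0.375 ± 0.012 (SD, n = 3), and overlapped on polysomes at 0.718 ± 0.165 and 0.608 ± 0.236 (SD, n = 3).

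**Figure D5:**
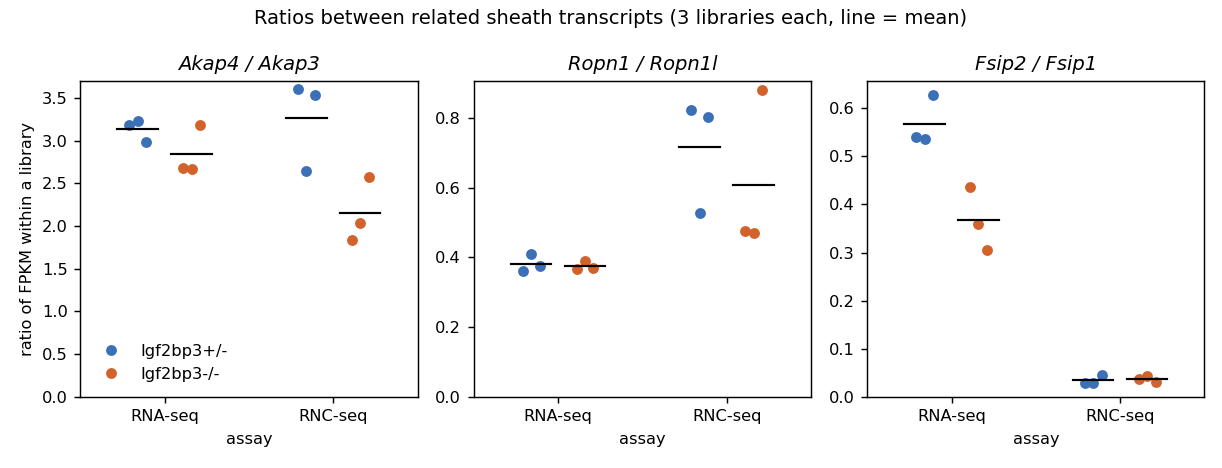
Ratio of FPKM within a library for Akap4 to Akap3, Ropn1 to Ropn1l and Fsip2 to Fsip1, in 3 libraries per genotype and assay, with a line at each mean. The genotypes are separate for Akap4 to Akap3 in RNC-seq and for Fsip2 to Fsip1 in RNA-seq, and overlap in the other 4 comparisons.

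The shape of each gene's profile over the 12 libraries was compared with that of 4818 genes outside the group with a mean of at least 10 FPKM in each assay, as the root mean square difference of centred log2 values. The nearest gene was Fabp9 for Spa17 (0.032), Ribc2 for Fsip1 (0.055), Sypl for Ropn1 (0.069), Spag4 for Ropn1l (0.070), Fbxl13 for Akap4 (0.092), Ccdc27 for Cabyr (0.092) and Usp2 for Akap3 (0.122). For Fsip2 the nearest was Dnah17 (0.502), which encodes a dynein heavy chain of the axoneme and has a transcript of 14973 bases, but Fsip2 itself, with RNC-seq means of 3.78 and 4.15 FPKM, lies below the minimum of 10 FPKM set for the compared genes, which left out genes at its polysome level. The loading of Dnah17 was -3.27 in Igf2bp3+/- and -2.55 in Igf2bp3-/-. Within the group the closest pair was Ropn1l and Cabyr (0.182), and Akap3 and Akap4, whose promoters share the run shown above, lay at 0.286. Fsip2 lay 1.67 or more from each other member.

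Transcripts of other tail components were read in the same fits, by lists of the parts they serve, and in no list did a gene pass the limit in RNA-seq, RNC-seq or TE between genotypes. At an unadjusted limma p under 0.05 these lists held 10 of 31 genes tested in RNA-seq (15.7% of all genes), 4 of 30 in RNC-seq (6.48%) and 2 of 30 in TE (7.13%). The median log2 difference in RNA-seq was 0.05 for 9 sheath-binding and anchoring proteins, -0.11 for 6 subunits of protein kinase A, 0.11 for 8 glycolytic enzymes and 0.19 for 8 proteins of the outer dense fibers and mitochondrial sheath, against 0.26 for the 8 sheath genes. In RNC-seq, where Prkacb fell below the filter on low FPKM and left 5 kinase subunits, the medians were 0.16, 0.11, 0.21 and 0.28.

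Loading on polysomes was read for the same lists, without a test between lists and without regard to transcript length. In Igf2bp3+/- spermatids 20 of the 30 genes tested passed the limit (43.7% of all genes). Of the 9 sheath-binding and anchoring proteins 6 were lower on polysomes and 0 higher (25.1% and 18.6% of all genes), with a median of -0.65. They were Akap11 (-1.55), Rhpn1 (-0.74), Cabs1 (-0.72), Akap1 (-0.68), Txndc2 (-0.65) and Akap14 (-0.47). Akap11 was low in level, with 2.21, 2.03 and 2.03 FPKM in the input and 0.627, 0.508 and 0.850 FPKM on polysomes. Cabs1, the most abundant of them in RNA-seq, had 389, 417 and 351 FPKM in the input and 285, 150 and 301 FPKM on polysomes. Of the kinase subunits, the catalytic Prkaca (-0.56) and the regulatory Prkar2a (-0.86) were lower, and the regulatory Prkar1a (0.32) was higher. Prkaca, the most abundant subunit, had 98.6, 122 and 110 FPKM in the input and 72.7, 71.2 and 78.9 FPKM on polysomes.

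Of the glycolytic enzymes, Hk1 (-0.81), Pfkm (-0.73) and Tpi1 (-0.54) were lower, whereas Ldhc, the sperm lactate dehydrogenase and by far the most abundant of the list at 3057 to 3346 FPKM in the input, had a loading of 0.40 that did not pass (limma adjusted p 0.0661). All 8 genes of the outer dense fibers and mitochondrial sheath passed, 3 lower and 5 higher (25.1% and 18.6% of all genes). Odf2 (-0.96), Smcp (-0.95) and Odf1 (-0.88) were lower, and Gpx4 (1.17), Spata19 (1.14), Odf4 (0.58), Tssk4 (0.50) and Odf3 (0.48) were higher. Odf2, a major outer dense fiber protein, had 1642, 1660 and 1794 FPKM in the input and 786, 869 and 980 FPKM on polysomes. In Igf2bp3-/- spermatids 6 of the 30 genes passed, against 21% of all genes (10.9% lower and 10.1% higher). They were Cabs1 (-0.83), Akap11 (-0.98) and Odf2 (-0.68), lower, and Odf3 (0.56), Odf4 (0.80) and Gpx4 (0.98), higher, with none among the kinase subunits or glycolytic enzymes. The call of Akap11 lay just within the limit (limma adjusted p 0.0498). No loading in these 4 lists came near that of Fsip2 in either genotype.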

How the data were processed

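The deposited file gives FPKM per gene symbol, which the authors computed, in 12 library columns. The labels show that columns named WT hold the heterozygotes. The submitters' notes and the methods name Trim Galore 0.6.6 for trimming, HISAT2 for alignment to GRCm38 and StringTie 2.1.7 for quantification. The annotation release and use of strand are not stated, and the labels and the methods describe different library kits and instruments. FPKM holds no counts, so depth is unknown and no counting interval was computed. Of 28668 symbols, 25 turned into dates by spreadsheet software were left out.

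Values were analysed as log2(FPKM + 0.1) in limma 3.58.1 (R 4.3.3) with an intensity trend, two-sided, among genes with a mean FPKM above 0.1, with Benjamini-Hochberg adjustment over all genes and a limit of 0.05. A fold change on this scale understates that of low genes. RNA-seq and RNC-seq were fitted over 6 libraries each, TE as the interaction over 12, and loading over the 6 libraries of a genotype. The fits were tested on simulated data. Ratios were compared with exact permutation tests in SciPy 1.17.1. Near-identical copies were sought with BLAST 2.17.0 (at least 95% identity over 50% of the longest transcript).

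The 8 genes are always named. From the lists of tail components, each gene past the limit and the most abundant gene are named, and for each of the 8 genes the nearest profile. The genes and lists were chosen with earlier results of these data known. Odf1 is also among the elongating spermatid markers. No batch is given in the labels. Alternatives were other pseudocounts, filters, scalings, array weights, a replicate block, a fit on all libraries, another call rule and leaving out each replicate.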

Additional observations from a re-analysis of the deposited data

How the results depend on the processing

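The counts of sheath genes past the limit between genotypes were 0 in RNA-seq and TE under every alternative run. The share of all genes past the limit under each alternative is not given here, so the counts below cannot be set against it. In RNC-seq the count was 1 (Akap3) by a rule of an unadjusted p below 0.05 and over 1.5-fold. The count of 5 for loading in Igf2bp3+/- became 2 with no filter on low FPKM (Fsip2 and Cabyr), 1 by the unadjusted rule over 1.5-fold (Fsip2) and 3 with the length trend removed (Fsip2, Ropn1l and Cabyr), and ranged from 1 to 3 with a replicate left out. The count of 1 in Igf2bp3-/- became 2 with libraries centred on their medians, with array weights or with a fit on all 12 libraries (Ropn1 joined), 3 with quantile normalization (Akap4 and Cabyr joined) and 4 with libraries rescaled to the same sum (Akap4, Fsip1 and Cabyr joined). The length trend was removed as an alternative chosen after seeing the data, and the length classes were chosen then too. The loading of Fsip2 passed the limit in both genotypes under every alternative run, from -4.34 to -2.58 in Igf2bp3+/- and from -3.73 to -2.57 in Igf2bp3-/-.

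With a replicate block the counts were 0 in RNA-seq, RNC-seq and TE, 6 in Igf2bp3+/- loading (Spa17 joined) and 1 in Igf2bp3-/- loading. The log2 differences of the ratios kept their values (-0.14, -0.60, -0.02, -0.28, -0.64 and 0.14), and the exact sign-flip p was at least 0.25, the smallest that 3 pairs allow. By the study's methods, input and polysomes came from the same extract, but no label says that the numbers match. Deviations of same-numbered input and polysome libraries of a genotype correlated between -0.10 and 0.21. Those of same-numbered libraries of different genotypes correlated between -0.08 and 0.24. With 3 replicates these values cannot decide whether the numbers mark pairs, and the main fits did not take them as pairs.

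Reversals of single genes were as follows, with the cause not tested. In RNA-seq, Akap3 turned to -0.055 (quantile), and Akap4 ranged from -0.12 to 0.0031 with a replicate left out. In RNC-seq, Akap4 turned to -0.089 (median centring), -0.11 (quantile), -0.13 (array weights) and -0.12 (length), and ranged from -0.17 to 0.22 with a replicate left out. Fsip1 turned to -0.058 (median centring), -0.091 (quantile) and -0.078 (length), ranging from -0.092 to 0.15, Fsip2 to -0.0089 (array weights) and -0.13 (length), ranging from -0.074 to 0.49, and Spa17 ranged from -0.34 to 0.0028. In TE, Akap4 turned to -0.054 (median centring), -0.079 (array weights) and -0.032 (length), ranging from -0.18 to 0.24. Ropn1 turned to 0.031 (quantile), 0.057 (same sum), 0.029 (array weights) and 0.050 (length), ranging from -0.21 to 0.12, and Cabyr to -0.063 (median centring), ranging from -0.080 to 0.25. In Igf2bp3+/- loading, Fsip1 turned to -0.11 (quantile) and -0.30 (same sum), ranging from -0.13 to 0.27 with a replicate left out, and Spa17 to -0.017 (length). In Igf2bp3-/- loading, Akap3 turned to -0.20 (quantile), -0.24 (same sum) and -0.055 (array weights), ranging from -0.037 to 0.089. Spa17 turned to -0.25 (quantile), -0.20 (same sum) and -0.37 (length), ranging from -0.051 to 0.24, and Ropn1l ranged from -0.39 to 0.11. The Ropn1 to Ropn1l ratio in RNA-seq ranged from -0.060 to 0.028. Of 624 results for single genes, 44 reversed, 22 lost and 14 gained the limit.

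With 3 replicates, unknown depth and FPKM that is relative within a library, small differences between genotypes cannot be resolved for these genes. Loading compares libraries of different content, so its zero depends on the scaling. Rescaling to the same sum moved the median loading of all genes from -0.09 to -0.38 in Igf2bp3+/-.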
